A study of Mus musculus with 9 samples.

Results

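The cytosolic ribosomal proteins were followed as 1 group of genes in bone marrow-derived dendritic cells (DCs). They were taken from the deposited counts by symbol: Rpl, Rps or Rplp, then a number, then at most the letters a, l or x, with at least 10 counts in at least 3 of the 9 libraries. Of 55471 genes in the counts, 83 carried such a symbol and 81 of them met the count rule. *Rpl39l*, just inside the rule, had 2 to 22 counts per library. Just outside it, *Rpl32l* had 3 to 8 counts, and *Rpl10l*, a testis gene, had 0 counts in every library, where 3 counts correspond to 0.0674 to 0.106 CPM (counts scaled to a common library size). The 81 genes comprised 47 of the large subunit, 31 of the small subunit and the 3 of the P stalk, and they lie on 19 chromosomes. The annotation lists 79 of them as protein-coding and the remaining 2, *Rps4l* and *Rpl6l*, as processed pseudogenes.

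DCs were grown with GM-CSF from the bone marrow of wild-type female C57BL/6 mice aged 8 to 20 weeks and harvested 6 h after no stimulation, LPS at 100 ng/mL or IFN-β at 1000 U/mL. LPS, made here by E. coli, activates DCs through Toll-like receptor signalling, and IFN-β is a cytokine of antiviral defence. Each condition had 3 libraries, lettered A, B and C, made from total RNA after removal of ribosomal RNA. Nothing in the sources states that the letters stand for separate mice or cultures, so p-values measure the spread between these libraries, which may be technical.

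Ribosomes are built from ribosomal RNA and a protein set that joins in near-equal numbers, so cells make these proteins together and in large amounts. Most of their mRNAs begin with a terminal oligopyrimidine (TOP) motif, a C followed by a run of pyrimidines at the 5′ end, through which the kinase mTORC1 and the RNA-binding protein LARP1 control their translation. Some members also have known roles outside the ribosome, such as binding of the p53 inhibitor MDM2 by RPL5 and RPL11.

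Between 33425803 and 43735199 counts per library fell on genes, and 16260 genes, all 81 members among them, passed the filter on low counts and were tested. TMM factors, which correct library sizes for differences in composition, were 1.18 to 1.26 in unstimulated, 0.783 to 0.841 in LPS-activated and 0.977 to 1.02 in IFN-β-treated DCs. All 8 DC markers were present, with summed levels of 5054 to 6151 CPM in unstimulated, 6996 to 7940 CPM in LPS-activated and 5730 to 6062 CPM in IFN-β-treated DCs. The 6 stimulation genes, among them *Il6* and *Ifit1*, summed to 136 to 219, 14131 to 16377 and 2482 to 2764 CPM in the same order. All 6 macrophage markers were also present, with summed levels of 1719 to 2168 CPM in unstimulated, 1874 to 2431 CPM in LPS-activated and 2417 to 2749 CPM in IFN-β-treated DCs. The 7 neutrophil markers summed to at most 19.8 CPM and the 5 mast cell and basophil markers to at most 9.95 CPM, and no lymphocyte or erythroid marker reached 10 counts in any library. The part of these cells in the results was not tested.

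The starts of the member genes are shown first, because the TOP motif is what these mRNAs are known for. RefSeq promoters on GRCm38.p6 were matched by symbol for 59 of the 81 members. Each window below holds 15 bases before and 15 bases from an annotated start, read 5′ to 3′ on the coding strand. Capitals mark the pyrimidine pentamers CTTTC or CTTTT, and also CTCTT or CTTCC. *Rpl7a* and *Rplp2* are shown for long runs at the start, and *Rpl4*, *Rps24*, *Rpl10a* and *Rps27l* because results below turn on them. The windows of the last 2 hold none of the pentamers. *Rps24*, *Rpl10a* and *Rps27l* each have 2 annotated starts, of which the first on the plus strand is shown, and the windows of their second starts hold none of the pentamers.
*Rpl7a*, chr2:26910792-26910821, plus strand: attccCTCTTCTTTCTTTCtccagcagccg
*Rplp2*, chr7:141447636-141447665, plus strand: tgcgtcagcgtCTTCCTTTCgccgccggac
*Rpl4*, chr9:64173372-64173401, plus strand: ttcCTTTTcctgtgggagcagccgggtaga
*Rps24*, chr14:24490663-24490692, plus strand: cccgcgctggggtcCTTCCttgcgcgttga
*Rpl10a*, chr17:28328456-28328485, plus strand: gtggcgcccccccagcggccgcaaactgca
*Rps27l*, chr9:66946071-66946100, plus strand: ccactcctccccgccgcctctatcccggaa

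Within 20 bases of the annotated start, 34 of the 59 members (57.6%) held at least 1 of these 4 pentamers on the coding strand, against 23.3% of 27025 genes. On the opposite strand the shares were 27.1% and 23.5%. The pentamers overlap one another within a longer run, and a gene with several annotated starts counts if any of them has a match, which applies to 10 members. In the whole window of 250 bases before to 50 bases after the start, read on both strands, the ETS core CCGGAAG was in 24 members (40.7%, against 9.93% of genes) and the SP1 core GGGCGG in 35 (59.3%, against 38.2%). The interferon-response core GAAACNGAAA was in 1 member (1.69%, against 0.792%), and the NF-κB core in 0, against 0.174%. The median log2 fold change of the 34 members with a TOP-like pentamer was 0.04 under LPS and -0.26 under IFN-β, and that of the 25 without was 0.03 and -0.24. These letters mark matches in the annotated windows and no measured start or binding site.

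Levels per length differed widely among the members in unstimulated DCs. The highest was that of *Rps29*, which encodes a zinc-binding protein of the small subunit, at 784 CPM per kb of transcript. *Rpl41*, which encodes the shortest ribosomal protein, had 694, and *Rplp1*, of the stalk that recruits elongation factors, had 646. At the other end were *Rpl24* with 0.98, the striated muscle paralog *Rpl3l* with 0.546 and the testis paralog *Rpl39l* with 0.249 CPM per kb. Of the 78 neighbouring pairs in this order of the protein-coding members, 66 overlapped in their library values, so most neighbours did not differ beyond their spread. The order rests on annotated transcript lengths of 271 to 3706 bases, and *Rps20* ranks low with a single annotated coding transcript of 3706 bases.

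The files also limit what some member levels mean. The 8 members under 1000 counts in every library were *Rpl3l*, *Rpl39l*, *Rpl6l*, *Rps4l*, *Rpl24*, *Rpl36al*, *Rps10* and *Rpl13a*. Exons of another gene on the same strand cover 91.6% of the transcript of *Rps10*, 71.5% of *Rpl24*, 63.1% of *Rpl36al* and 59.3% of *Rpl13a*, and the authors' counter drops reads that fall on more than 1 gene. For the remaining members the same-strand overlap was at most 10.7%. Exons on the opposite strand cover 68.3% of *Rpl35*, 55.4% of *Rpl23a*, 46.6% of *Rpl5* and 34.7% of *Rpl30*, and the strand setting of the counting is not given in the sources used here. Reads that map equally well to several places were not counted, and 322 Rpl and Rps pseudogenes named with "-ps" together held 0.00419% to 0.00761% of counts.

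The 81 genes took a smaller share of the gene counts after either stimulus. They held 1.95%, 1.96% and 2.07% of counts in unstimulated libraries A, B and C, with a mean of 1.99% ± 0.067 (SD, n = 3). In LPS-activated DCs they held 1.29%, 1.46% and 1.35%, with a mean of 1.37% ± 0.083 (SD, n = 3), and in IFN-β-treated DCs 1.23%, 1.38% and 1.44%, with a mean of 1.35% ± 0.11 (SD, n = 3). Every stimulated library lay below every unstimulated library, and the libraries of the 2 stimuli overlapped. A share is relative to all other transcripts in the library. In bulk RNA, lower levels per cell cannot be told apart from more of other transcripts or a different mix of cells. Small-subunit genes held 0.8% to 0.852% of counts in unstimulated, 0.557% to 0.616% in LPS-activated and 0.514% to 0.603% in IFN-β-treated DCs.

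After TMM scaling only the IFN-β libraries stood apart. The summed level of the 81 genes was 16494, 15767 and 16392 CPM in unstimulated, 16515, 17402 and 16086 CPM in LPS-activated, and 12596, 13564 and 14657 CPM in IFN-β-treated libraries A, B and C. The LPS libraries overlapped the unstimulated ones, and all 3 IFN-β libraries lay below both.

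**Figure D1:**
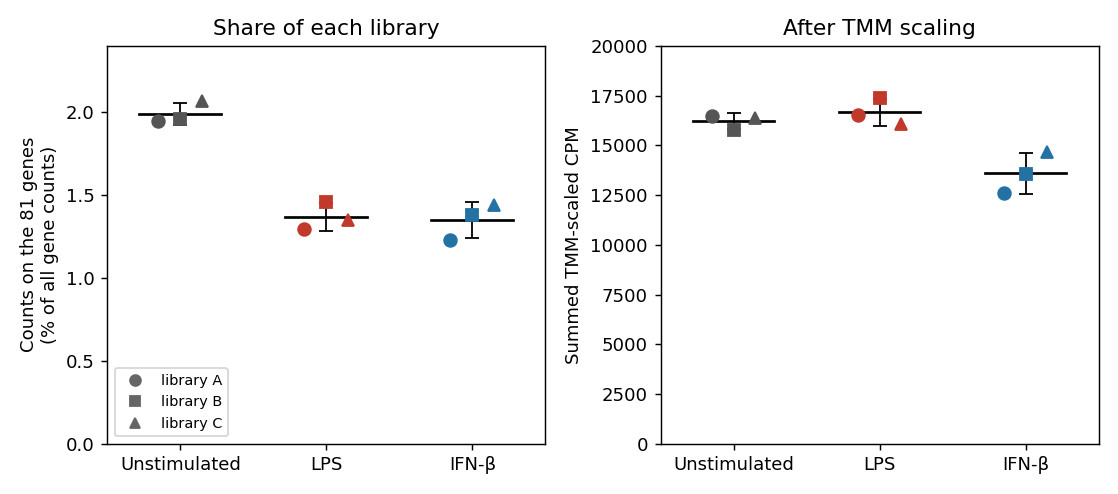
Share of gene counts on the 81 cytosolic ribosomal protein genes (left, percent of all gene counts in a library) and their summed TMM-scaled level (right, CPM) in unstimulated, LPS-activated and IFN-β-treated DCs; symbols are libraries A, B and C, lines are means and bars are SD (n = 3). The share fell from a mean of 1.99% to 1.37% and 1.35%, whereas the scaled sum was lower under IFN-β only.

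LPS against unstimulated asks which members the bacterial stimulus moved. It raised 9 members and lowered 8, and 64 did not pass the threshold of an adjusted p under 0.05. The share of members called higher was 11.1%, against 32.8% of all 16260 tested genes, and the share called lower was 9.88%, against 35.4%. The median log2 fold change of the members was 0.03, with an interquartile range of 0.23, against a median of -0.04 and an interquartile range of 1.29 over all tested genes. The median standard error of a member was 0.08 on the log2 scale, against 0.14 for all genes.

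Of the 9 members that rose, 6 encode small-subunit and 3 large-subunit proteins. *Rps27l*, a paralog of *Rps27* that p53 is known to induce, had 72.8, 78.2 and 75.6 CPM in unstimulated, 156, 162 and 159 CPM in LPS-activated and 63.8, 68.5 and 79.0 CPM in IFN-β-treated libraries A, B and C. The LPS libraries stood above all others, whereas IFN-β and unstimulated libraries overlapped. LPS raised it 2.11-fold, by edgeR's quasi-likelihood test at an adjusted p of 5.83e-07, with 1.07 ± 0.08 (SE) on the log2 scale. The exact two-sided permutation test of 3 libraries against 3 gave 0.1, the smallest p it allows.

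*Rps20*, which encodes a protein that is ubiquitinated when ribosomes collide, had 170, 156 and 160 CPM in unstimulated and 256, 243 and 222 CPM in LPS-activated libraries, or 0.57 ± 0.07 on the log2 scale (SE, adjusted p = 4.08e-05). *Rps24*, a gene mutated in Diamond-Blackfan anaemia, had 354, 343 and 370 CPM and 502, 493 and 491 CPM, or 0.48 ± 0.08 (SE, adjusted p = 0.000372). In both genes each LPS library lay above each unstimulated one. *Rpl34* had 129, 121 and 124 CPM in unstimulated, 152, 161 and 147 CPM in LPS-activated and 102, 109 and 130 CPM in IFN-β-treated libraries, with LPS above all others. *Rpl34*, *Rpl7*, *Rps27* and *Rps9* rose by less, with log2 fold changes of 0.30, 0.22, 0.21 and 0.20. *Rpl24*, which encodes a protein at the contact between the subunits, was called at 1.16 ± 0.24 (SE, adjusted p = 0.00131) on 27 to 31 counts in unstimulated and 42 to 57 in LPS-activated libraries.

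**Figure D2:**
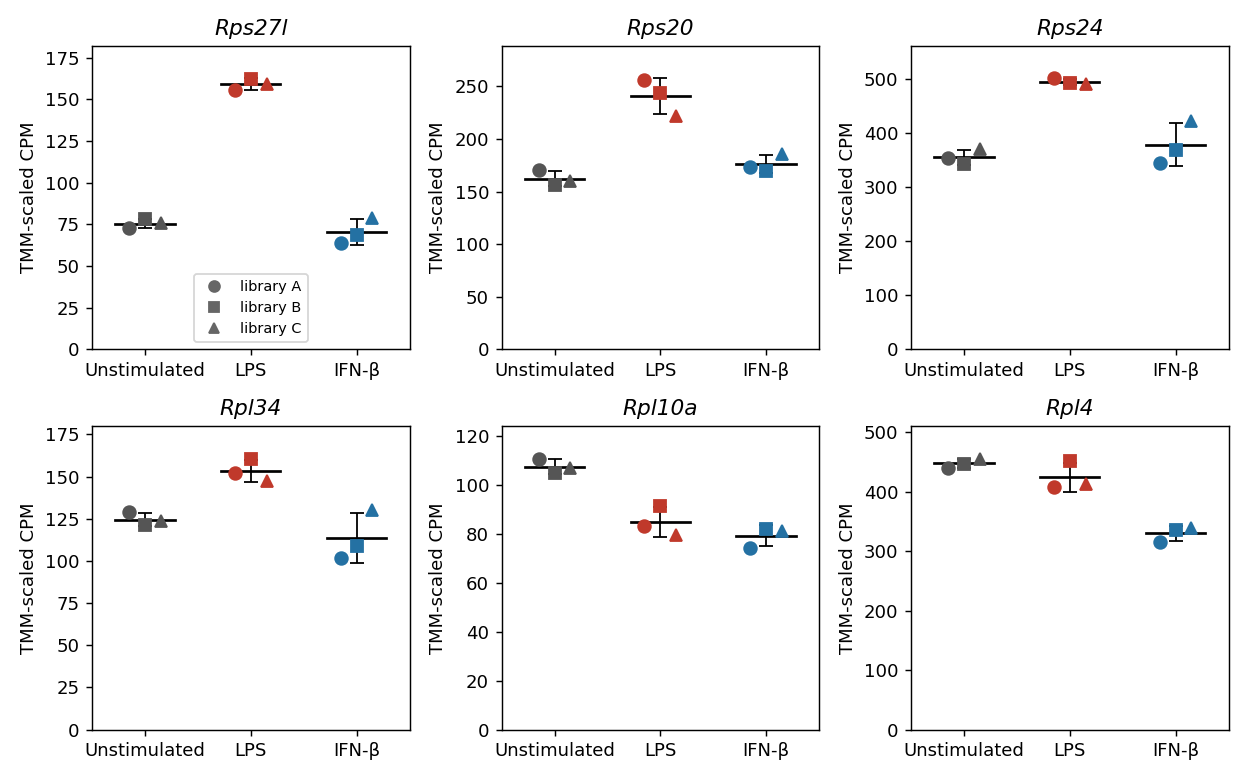
TMM-scaled CPM of 6 members in each library of unstimulated, LPS-activated and IFN-β-treated DCs; symbols are libraries A, B and C, lines are means and bars are SD (n = 3). The 3 LPS libraries stand above all others for *Rps27l*, *Rps20*, *Rps24* and *Rpl34*, *Rpl10a* is lower under both stimuli, and *Rpl4* is lower in the IFN-β libraries.

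Of the 8 members called lower under LPS, 6 were among the 47 large-subunit genes and 2 among the 31 small-subunit genes. *Rpl10a*, which encodes the protein of the mobile stalk at the tRNA exit side, had 111, 105 and 107 CPM in unstimulated, 83.4, 91.7 and 79.5 CPM in LPS-activated and 74.5, 82.2 and 81.4 CPM in IFN-β-treated libraries. Both stimuli lay below the unstimulated libraries and overlapped each other. LPS changed it by -0.34 ± 0.07 (log2, SE, adjusted p = 0.00121) and IFN-β by -0.44 ± 0.07 (adjusted p = 0.000496).

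*Rpl14* fell by 0.30, *Rpl13* by 0.27, *Rpl3*, whose protein reaches towards the peptidyl transferase centre, by 0.27, and *Rps2* by 0.25 on the log2 scale. Among members with few counts, *Rpl13a*, known as part of an interferon-γ-activated inhibitor of translation, had a log2 fold change of -0.73, *Rps10*, a further target of collision-induced ubiquitination, -0.63, and *Rpl3l* -1.10 on 6 to 33 counts. Without the 8 members under 1000 counts, LPS raised 8 and lowered 5.

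How many members LPS moved, and which way, depended on the scaling, because the 3 LPS libraries have TMM factors under 1 and the unstimulated ones over 1. With scaling by library size only, LPS lowered 74 members (60.9% of all genes were lower) and raised 3 (17.1% of all genes), *Rps27l* and *Rpl24* among them. *Rps20* and *Rps24* then had values of -0.02 and -0.11, neither past the threshold, and *Rpl34*, *Rpl7*, *Rps27* and *Rps9* were called lower, at -0.28, -0.37, -0.37 and -0.38. That scaling moved the median of all genes from -0.04 to -0.62 and the member median from 0.03 to -0.55. Members lay 0.07 above the median of all genes either way. This is built in, because a scaling factor moves all genes of a library together. Upper-quartile factors gave 5 higher and 19 lower (29.5% and 39.3% of all genes) and DESeq2 gave 16 higher and 8 lower (33.9% and 33.0% of its tested genes). With the replicate letters as a block, 16 members were higher, against 35.4% of all genes. All 9 of the main analysis were among them, with *Rpl19*, *Rps29*, *Rpl39l*, *Rpl23a*, *Rpl17*, *Rpl23* and *Rpl39*.

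**Figure D3:**
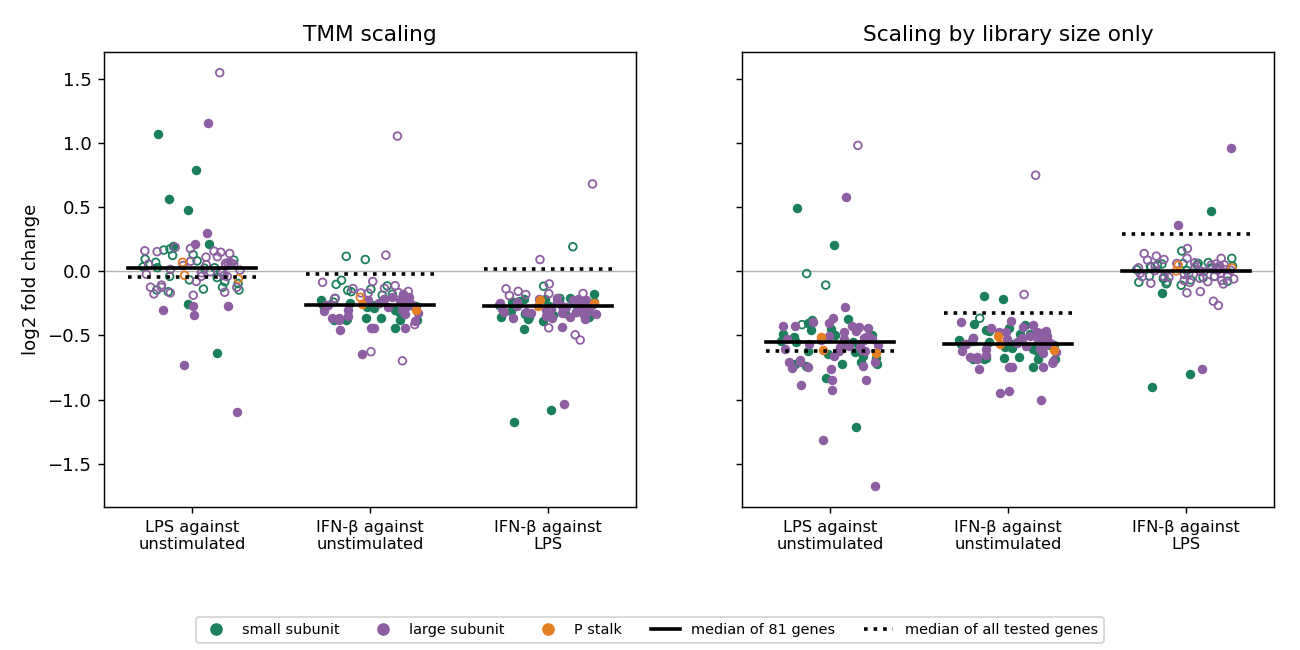
Log2 fold changes of the 81 members in the 3 comparisons with TMM scaling (left) and with scaling by library size only (right); each point is a gene, coloured by subunit, filled if its adjusted p is under 0.05, and lines are the medians of the members (solid) and of all tested genes (dotted). The scaling moves members and other genes together. The member median under IFN-β therefore lies 0.24 below the median of all genes on both sides.

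Counts set against other members need no scaling factor. *Rps27l* had 47.4, 51.3 and 48.3 counts per 100 counts of *Rps27* in unstimulated libraries, 87.7, 87.2 and 92.6 in LPS-activated and 48.8, 48.6 and 50.6 in IFN-β-treated libraries. The LPS libraries stood apart, and the IFN-β libraries overlapped the unstimulated ones.

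*Rps20* made up 1.03%, 0.99% and 0.978% of the counts of all 81 members in unstimulated, 1.55%, 1.4% and 1.38% in LPS-activated and 1.38%, 1.25% and 1.26% in IFN-β-treated libraries. For *Rps24* the values were 2.14%, 2.18% and 2.26%, then 3.04%, 2.83% and 3.05%, then 2.74%, 2.73% and 2.89%. Both took a larger share of the member counts after either stimulus. Under IFN-β neither gene was called by edgeR's test, at log2 fold changes of 0.12 and 0.09 (adjusted p = 0.207 and 0.383). The member median was then -0.26, so the counts they are set against were lower. Both genes were picked for their rise under LPS in these same counts.

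*Rpl10a* went the other way. It made up 0.672%, 0.666% and 0.652% of member counts in unstimulated, 0.505%, 0.527% and 0.494% in LPS-activated and 0.591%, 0.606% and 0.556% in IFN-β-treated libraries. The 3 groups did not overlap.

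**Figure D4:**
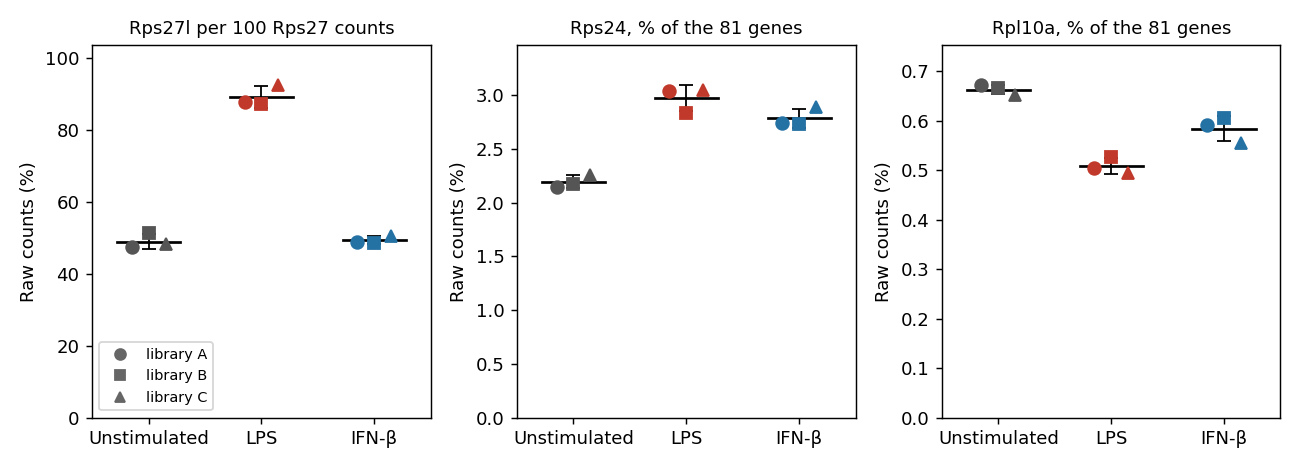
Raw counts of *Rps27l* per 100 counts of *Rps27*, and raw counts of *Rps24* and of *Rpl10a* as percent of the counts of all 81 members, in each library of the 3 conditions; symbols are libraries A, B and C, lines are means and bars are SD (n = 3). The LPS libraries of *Rps27l* sit between 87.2 and 92.6, and all others between 47.4 and 51.3.

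The ratio of small-subunit to large-subunit counts, with the P stalk in the large subunit, was 0.691 to 0.701 in unstimulated, 0.732 to 0.756 in LPS-activated and 0.701 to 0.72 in IFN-β-treated libraries. *Rps20*, *Rps24* and *Rps27l* together held 8.91% ± 0.112 (SD, n = 3) of small-subunit counts in unstimulated, 12.6% ± 0.347 in LPS-activated and 11.1% ± 0.164 in IFN-β-treated DCs. Without these 3 genes, chosen after their values were seen, the ratio was 0.629 to 0.639 in unstimulated, 0.643 to 0.659 in LPS-activated and 0.624 to 0.639 in IFN-β-treated libraries, so the LPS libraries still lay above the others.

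IFN-β against unstimulated asks the same of the interferon. It lowered 52 of the 81 members (64.2%, against 23.3% of all tested genes) and raised 0, against 23.6% of all genes. At an unadjusted p under 0.05, edgeR called 61 lower and 0 higher, and DESeq2 called 53 lower and 0 higher after adjustment. Shares of all genes for these calls are not given here. The member median was -0.26, with quartiles of -0.36 and -0.18, against a median of -0.02 over all genes. The changes were small: 1 of the 52 fell by at least 0.5 on the log2 scale.

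Among the called members, *Rpl13a* had the lowest value, -0.64 ± 0.11 (SE, adjusted p = 0.000997), followed by *Rpl14* at -0.46, *Rpl13* and *Rps10* at -0.44 and *Rpl4*, whose protein lines the tunnel for the growing chain, at -0.44. *Rpl4* had 441, 447 and 456 CPM in unstimulated, 408, 452 and 413 CPM in LPS-activated and 316, 335 and 340 CPM in IFN-β-treated libraries. All IFN-β libraries lay below the others, and its standard error was 0.07 (adjusted p = 0.000453). The called members with the smallest falls were *Rpl37a*, *Rpl27*, *Rpl31*, *Rpl17* and *Rpl7a*, at -0.22 to -0.17.

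Both subunits took part. Of 31 small-subunit genes 19 were lower, with a median of -0.26, and of 47 large-subunit genes 31 were lower, with a median of -0.25. In the P stalk, *Rplp0* had a log2 fold change of -0.30 (adjusted p = 0.00737), *Rplp1* -0.26 (adjusted p = 0.0201) and *Rplp2* -0.20 (adjusted p = 0.0624, not past the threshold, and 0.0342 with the replicate block, where it was called), and none of the 3 passed under LPS. The members kept close together, and 74 of 81 lay within 0.2 of the member median.

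The fall was present within each letter. Between IFN-β and unstimulated libraries of the same letter, the member median was -0.40 for A, -0.20 for B and -0.16 for C. The median of all tested genes was -0.012, -0.004 and -0.010. Of 81 members, 79, 78 and 71 were lower, but the genes of a library pair are not independent observations. With scaling by library size only, 77 members were lower (46.0% of all genes) and 0 higher (13.2% of all genes). The member median of -0.56 lay 0.24 below that of all genes, as with TMM factors, because scaling moves all genes together. The count of members called lower dropped to 29 without IFN-β library A, which had the lowest member median, and to 34 without unstimulated library A. How many of all genes lost their call in those fits is not given here.

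Both comparisons above share the unstimulated libraries, and IFN-β against LPS compares the stimuli directly. Of 81 members, 64 were lower under IFN-β than under LPS (79.0%, against 23.3% of all genes) and 0 were higher (25.8% of all genes). At an unadjusted p under 0.05, 66 were lower and 0 higher, and DESeq2 called 67 lower and 0 higher after adjustment. The member median was -0.27, and every called member with over 1000 counts lay between -1.18 and -0.17. The count dropped to 40 without IFN-β library A or without LPS library B, and to 42 without IFN-β library B. All-gene shares at an unadjusted p, in DESeq2 or without a library are not given here.

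Large differences were those of *Rps27l* at -1.18 ± 0.08 (SE, adjusted p = 8.97e-07), *Rpl24* at -1.03, *Rps20* at -0.45 and *Rpl34* at -0.43. At the other end of the called members, *Rps7*, *Rpl10*, *Rps4x*, *Rpl36a* and *Rps3*, whose protein lines the mRNA entry, lay at -0.22 to -0.17. With scaling by library size only, 4 members were lower (12.3% of all genes) and 3 higher (43.2% of all genes), and the member median was 0.01. *Rps27l*, *Rps20* and *Rpl24* were among the lower ones, and the higher ones were *Rpl3l*, *Rps10* and *Rpl13a*. The median of all genes was then 0.29, and members lay 0.29 below it with either scaling, because scaling moves all genes together.

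By their calls in the 3 comparisons, 41 members did not pass under LPS and were lower under IFN-β both against unstimulated and against LPS. Another 14 were called only as lower under IFN-β than under LPS. *Rpl10a*, *Rpl13*, *Rpl13a*, *Rpl14*, *Rpl3*, *Rps10* and *Rps2* were lower under each stimulus against unstimulated, with no called difference between the stimuli. The 6 members that passed nowhere were *Rps21*, *Rps28* and the low-count genes *Rpl36al*, *Rpl39l*, *Rpl6l* and *Rps4l*. With the replicate block, 4 of these 6 were called: *Rps21* and *Rps28* as lower under IFN-β than in unstimulated and LPS-activated DCs, *Rpl36al* as lower under IFN-β than in unstimulated DCs, and *Rpl39l* as higher under LPS.

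The paralogs had fewer counts than their parent genes. *Rpl36al* had 1.82 to 1.96 counts per 100 of *Rpl36a* in unstimulated libraries, *Rpl3l* 0.211 to 0.263 per 100 of *Rpl3*, and *Rpl39l* 0.0486 to 0.243 per 100 of *Rpl39*. Exons of another gene cover 63.1% of the *Rpl36al* transcript and reads on both were dropped, so its ratio may be too low. *Rpl39l* had 1.55 ± 0.66 under LPS (log2, SE, adjusted p = 0.0582), not past the threshold. *Rps4l* had 58 to 180 counts per library, and its counts were highest in library A and lowest in library C of each condition.

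Ribosomal protein genes named outside the pattern were described by the same fit. *Rpsa*, which also serves as a laminin receptor, was called lower under each stimulus, with log2 values of -0.34 for LPS and -0.39 for IFN-β, and *Rack1*, a scaffold on the small subunit, fell by 0.33 under IFN-β. *Fau*, a ubiquitin-like fusion, had -0.20 under IFN-β (adjusted p = 0.0683). The paralog *Rpl22l1* rose under LPS, by 0.46 on the log2 scale (adjusted p = 0.0259; -0.12 and not called with scaling by library size only), and had -0.01 under IFN-β. *Rpl7l1* had -0.23 under LPS and -0.39 under IFN-β, both called, and *Rps27rt*, at a mean of 0.412 CPM in unstimulated DCs, passed in neither. Of 7 such genes tested, LPS raised 1 and lowered 3, and IFN-β lowered 4. The shares under LPS were 14.3% higher and 42.9% lower, against 32.8% and 35.4% of all genes. Under IFN-β 57.1% were lower, against 23.3% of all genes.

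Translation factors carry tRNA and mRNA to the ribosome and move it along. Of 37 genes, LPS raised 14 and lowered 9, with a median log2 fold change of -0.06, and IFN-β raised 2 and lowered 17, with a median of -0.17. The shares were 37.8% higher and 24.3% lower under LPS, against 32.8% and 35.4% of all genes, and 5.41% higher and 45.9% lower under IFN-β, against 23.6% and 23.3%. With scaling by library size only, LPS raised 1 and lowered 29, and IFN-β raised 0 and lowered 34. The shares of all genes were then 17.1% higher and 60.9% lower under LPS, and 13.2% and 46.0% under IFN-β. *Eif6*, which keeps the large subunit from joining the small one too early, rose by 1.03 under LPS (0.44 by library size only) and by 0.35 under IFN-β (0.05 and not called by library size only). *Eif4b*, which helps the cap-binding helicase, fell by 0.77 under LPS, and *Eef1g*, of the elongation factor exchange complex, fell by 0.71 under IFN-β.

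Genes for making ribosomes act on ribosomal RNA and on the assembly of subunits. Of 39 such genes, LPS lowered 30 and raised 2, with a median of -0.94, and IFN-β lowered 37 and raised 0, with a median of -0.74. All-gene shares were 35.4% lower under LPS and 23.3% under IFN-β, against 76.9% and 94.9% of these genes. *Dkc1*, the pseudouridine synthase that modifies ribosomal RNA, had -3.07 under LPS and -1.93 under IFN-β, both called. *Wdr43* rose by 0.91 under LPS (0.32 by library size only, also called), and *Polr1c*, a subunit of RNA polymerases I and III, had the smallest called fall under IFN-β, at -0.22. Of 8 noncoding host genes of small nucleolar RNAs, LPS lowered 6 and IFN-β 7. *Snhg12* had -1.58 and -1.16, whereas *Zfas1* was called higher under each, at 0.68 and 1.18 (0.10, not called, and 0.88, called, by library size only).

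Among 17 tested regulators of TOP mRNAs, mTORC1 and MYC, LPS raised 6 and lowered 10, and IFN-β raised 4 and lowered 8. The shares called higher, 35.3% under LPS and 23.5% under IFN-β, were near the 32.8% and 23.6% of all genes, and those called lower were 58.8% and 47.1%, against 35.4% and 23.3%. Each stimulus raised 3 and lowered 12 with scaling by library size only. Of all genes, 17.1% were then higher and 60.9% lower under LPS, and 13.2% and 46.0% under IFN-β. *Myc*, which drives ribosome production, had -3.13 under LPS and -0.63 under IFN-β, both called, and its antagonist *Mxd1* rose by 2.74 and 2.24. *Deptor*, an inhibitor of mTOR, had -3.08 and -1.96, both called. *Larp1*, named here after its values were seen, rose by 1.56 and 0.77. These are mRNA levels, and neither translation nor mTORC1 activity was measured in the data analysed here.

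The mitochondrial ribosomal proteins, 77 genes by the same count rule, build the separate ribosome of that organelle. LPS lowered 50 and raised 9 of them, with a median of -0.33 and an interquartile range of 0.62. That was 64.9% lower and 11.7% higher, against 35.4% and 32.8% of all genes. IFN-β lowered 46 and raised 7, with a median of -0.31 and an interquartile range of 0.39. Here 59.7% were lower and 9.09% higher, against 23.3% and 23.6% of all genes. Between the stimuli, 18 were higher and 8 lower under IFN-β, with a median of 0.07. The share called higher, 23.4%, was near the 25.8% of all genes, and 10.4% were lower, against 23.3%. Scaled by library size only, 51 of the mitochondrial genes were higher and 2 lower between the stimuli, against 43.2% and 12.3% of all genes. Against unstimulated DCs, LPS then lowered 70 and IFN-β 65, where 60.9% and 46.0% of all genes were lower.

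**Figure D5:**
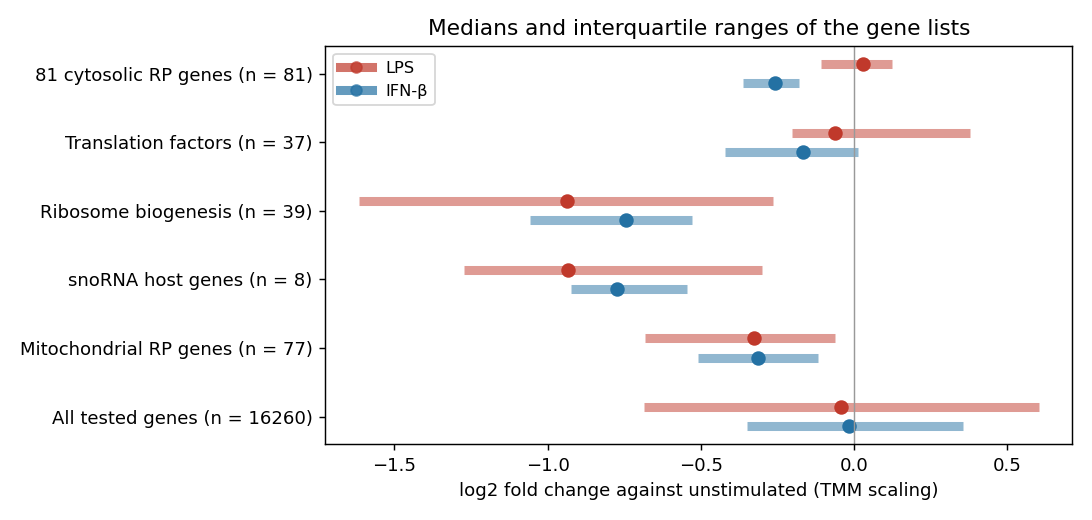
Median (points) and interquartile range (bars) of log2 fold changes against unstimulated DCs under LPS and IFN-β, with TMM scaling, for the 81 cytosolic ribosomal protein (RP) genes, 4 related lists and all tested genes. The cytosolic genes have the narrowest bars, with medians of 0.03 and -0.26. Ribosome biogenesis genes (-0.94 and -0.74) and small nucleolar RNA (snoRNA) host genes (-0.93 and -0.77) lie lowest.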

How the data were processed

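RNA was sequenced from 9 libraries of GM-CSF-cultured mouse DCs, 3 per condition, after depletion of ribosomal RNA. The authors trimmed reads (Trim Galore 0.6.0 in the submitters' processing notes), mapped them to mm10 with STAR (2.7.8a in the notes) and deposited raw counts per gene for GENCODE M20, without normalization or a low-count filter. STAR's gene counting keeps uniquely mapped reads and drops reads on more than 1 gene; its strand column is not given in the sources used here.

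Counts were tested with edgeR 4.0.16 (limma 3.58.1, R 4.3.3) over all 9 libraries: filterByExpr, TMM factors, 1 term per condition, quasi-likelihood F-tests and Benjamini-Hochberg adjustment over 16260 genes, with 0.05 as threshold. The study's methods name edgeR with TMM, quasi-likelihood F-tests, this adjustment and threshold, and the contrast between the responses to IFN-β and LPS; the filter and the comparisons of each stimulus with unstimulated DCs were chosen here. The standard error is the absolute log2 fold change over the square root of F. CPM are TMM-scaled, and log2 values of single libraries add 0.5 CPM. Single values were also compared by exact permutation tests. Transcripts and overlaps come from GENCODE M21 (GRCm38; 55144 of 55471 identifiers and all 81 members matched). Per-length levels used the shortest complete coding transcript with CCDS and APPRIS principal tags. The fit was tested on simulated data. Depth was 33425803 to 43735199 counts per library; floors of 3 counts cover counting error only.

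Libraries with the same letter deviated together from their group means in all 9 pairs (correlation across genes 0.115 to 0.47), against at most 0.028 for different letters, so the letters pair the samples by the data; the labels do not say what they mark. Alternatives were DESeq2 1.42.0, library size only, upper-quartile factors, TMM factors without the members, other filters, 2 groups only, the replicate block, each library left out, and other thresholds.

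Named genes were the 5 highest and 5 lowest called members per comparison, the 3 highest and 3 lowest levels per kb, all paralogs and stalk genes, ribosomal protein genes outside the pattern, and the highest and lowest called gene of each other list per stimulus; genes named outside this rule were chosen after their values were seen. The members and lists were chosen with earlier results of these data known. Some genes that the rule names are not reported here; they stay in the counts and medians.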

Additional observations from a re-analysis of the deposited data

How the results depend on the processing

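The members' median minus that of all genes was 0.07 under LPS, -0.24 under IFN-β and -0.29 between them with TMM, size-only, upper-quartile and DESeq2 scaling alike. With scaling by library size only, LPS raised 3 and lowered 74 members with a median of -0.55, IFN-β had a median of -0.56, and IFN-β against LPS had 3 higher and 4 lower with a median of 0.0069; *Rps24* (-0.1067) and *Rps20* (-0.0169) under LPS, and *Rps7* (0.0618), *Rpl10* (0.0617), *Rps4x* (0.0687), *Rpl36a* (0.0677) and *Rps3* (0.10) between the stimuli, turned direction. Upper-quartile factors gave 5 higher and 19 lower under LPS with a median of -0.0637, and DESeq2 and the replicate block each gave 16 higher. The block changed no other count by over 1.5 times and lost no member call, though it added calls. At an adjusted p under 0.01, 5 higher and 5 lower remained under LPS, 27 lower under IFN-β and 31 lower between them. At a log2 change of at least 0.5 the counts were 4 and 3, 1, and 3, and at 1 they were 2 and 1, 0, and 3. All-gene shares at these thresholds are not given here, so the drops cannot be told from a general loss of calls. Without the 8 members under 1000 counts, an alternative chosen after seeing the data, LPS lowered 5.

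Leaving out 1 library at a time gave 7 to 12 higher and 7 to 10 lower under LPS (median -0.007 to 0.0413), 29 to 62 lower under IFN-β (median -0.32 to -0.21; 29 without IFN-β A, 34 without unstimulated A) and 40 to 68 lower between them (median -0.34 to -0.22; 40 without IFN-β A or LPS B, 42 without IFN-β B), with 0 higher in both. Without a library, the shares of all genes called are not given here, so these counts have no background. The mean share of counts was 2.14%, 1.46% and 1.45% (unstimulated, LPS, IFN-β) with the genes outside the pattern and the pseudogenes. Outside the 100 genes with the most counts it was 2.7%, 1.97% and 1.88%. Of the named single results, *Rps3* between the stimuli kept its call in 5 of 17 alternatives, *Rpl10* in 8, and *Rps10* and *Rpl7a* under IFN-β in 10. With 3 libraries a group the exact test cannot go below 0.1, and at 2 to 57 counts *Rpl39l*, *Rpl3l* and *Rpl24* are limited by depth.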
